A study of Mus musculus with 12 samples.

Results

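The 33 genes described here are Atf4 and the stress, serine, one-carbon, proline, amino acid transport, transsulfuration and transamination genes commonly linked to it. They were taken by symbol from a table of 25203 mouse genes, and all 33 were found. Of these, 31 had at least 1 FPKM in at least 3 libraries and were tested, among 12641 tested genes. Prodh and Cbs did not reach that level.

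The values come from RNA sequencing of primary mouse intestinal stromal cells in culture, in 12 libraries of 4 groups with 3 libraries each. All groups were derived from Pdgfra-lo-H2B-GFP cells, in which a nuclear fluorescent reporter marks low expression of Pdgfra, the receptor of platelet-derived growth factor on fibroblasts. Vehicle cells and cells given exogenous TGFB1 (transforming growth factor beta 1) were compared, and the same 2 treatments were given to cells labelled Tgfbr2KO, whose type II TGF-beta receptor gene was knocked out. The study used the knockout to look for TGFB1 effects that do not pass through the canonical receptor. Dose, time, strain, age and the way the knockout was made are not given in the sources used here, and the labels do not say whether the 3 libraries of a group came from separate animals. P-values therefore measure the spread between libraries, which may not be the spread between animals.

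ATF4 is a transcription factor whose protein is made when cells phosphorylate the translation initiation factor eIF2 alpha under amino acid shortage, endoplasmic reticulum stress or other strain, a route called the integrated stress response. It activates genes for the synthesis and uptake of amino acids, for charging tRNA, and for feedback on the response itself. Because ATF4 is largely controlled at translation, its mRNA is only one reading of its activity. In fibroblasts, the serine, glycine and proline genes are known for feeding the production of collagen, a protein rich in glycine and proline.

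ATF4 paired with a C/EBP protein is known to bind a composite DNA element, and its letters were searched in promoters of the members. RefSeq promoter windows (build GRCm38.p6, 250 bases before to 50 after each gene start) were matched by symbol for 28 of 33 members, with none for Cth, Eif4ebp1, Slc1a5, Slc7a5 and Aldh1l2. The motif TGATGNAA, on either strand, lay in 9 of 28 member windows (32.1%) and in 4.51% of the windows of 27025 genes. The 9 were Asns, Chac1, Got1, Nupr1, Pck2, Pycr1, Slc1a4, Slc7a11 and Trib3. The 6 sequences shown are from members whose values are described in full further on. Each is given 5′ to 3′ on the gene's strand with the match in capitals, read as TGATGNAA or as its reverse complement.
Asns: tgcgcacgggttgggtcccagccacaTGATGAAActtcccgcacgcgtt
Chac1: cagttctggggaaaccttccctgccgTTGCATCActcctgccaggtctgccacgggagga
Nupr1: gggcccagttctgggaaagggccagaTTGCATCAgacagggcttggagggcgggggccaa
Pycr1: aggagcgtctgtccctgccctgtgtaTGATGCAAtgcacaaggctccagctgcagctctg
Slc1a4: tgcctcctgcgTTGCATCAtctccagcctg
Trib3: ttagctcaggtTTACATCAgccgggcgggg

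In GRCm38.p6 these stretches are chr6:7693210-7693258 for Asns (minus strand), chr2:119351023-119351082 for Chac1 (plus strand) and chr7:126625547-126625606 for Nupr1 (minus strand). Pycr1 is at chr11:120643818-120643877, Slc1a4 at chr11:20332699-20332728 and Trib3 at chr2:152344028-152344057, all on the minus strand. The match began 23 bases before the annotated start in Asns, 193 in Chac1, 110 in Nupr1, 103 in Pycr1 and 4 in Slc1a4, and 14 bases after it in Trib3. The other motifs searched, also on both strands, were the cyclic AMP response element TGACGTCA, in 0 of 28 member windows and 2.03% of all, and the SMAD palindrome GTCTAGAC, in 0 of 28 and 0.248%. The E-box CACGTG lay in 3 of 28 (10.7%) and in 8.09% of all. A match describes letters in a window and not a bound site.

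All 12 libraries expressed fibroblast genes. Of 12 fibroblast markers, 10 or 11 in each group were above 1 FPKM in every library, and Pdgfra, the gene the reporter is named for, was between 12.1 and 195 FPKM. Tgfbr2 itself was at 48.0, 38.2 and 78.8 FPKM with vehicle, 56.5, 70.6 and 74.6 with TGFB1, 27.0, 35.2 and 41.9 in Tgfbr2KO_Vehicle and 31.6, 38.0 and 62.4 in Tgfbr2KO_TGFB1. A value over the whole gene does not check a deletion of part of it. Relative depth was 0.962 to 1.05 of the first Vehicle library in Vehicle, 0.745 to 0.798 in TGFB1, 0.859 to 1.02 in Tgfbr2KO_Vehicle and 0.802 to 1.24 in Tgfbr2KO_TGFB1. The first replicate of both Tgfbr2KO groups stood apart in the keratin gene Krt8, at 25.8 and 7.80 FPKM, while it was at most 0.0542 in the other 10 libraries.

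With TGFB1, most of the members were expressed at higher levels in cells without the knockout label. In TGFB1 minus Vehicle, 17 of 31 tested members rose (54.8%) and 3 fell (9.68%), where over all tested genes 17.3% rose and 14.6% fell. The test was limma on log2(FPKM + 1), with p-values adjusted over all tested genes and a threshold of 0.05. Members had a median log2 change of 0.41, with single changes from -0.61 to 0.91, beside 0.02 over all tested genes. The genes that rose spanned stress feedback (Chac1, Nupr1, Sesn2, Eif4ebp1), serine and asparagine synthesis (Phgdh, Psph, Asns), one-carbon metabolism (Shmt2, Mthfd2, Aldh1l2), proline synthesis (Aldh18a1, Pycr1), transport (Slc7a5, Slc3a2, Slc7a1, Slc1a4) and transsulfuration (Cth). Shmt1, Slc1a5 and Slc38a2 fell.

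Replicate numbers are shared over the groups, and with the number as a block in the fit 22 members rose (22.7% over all genes) and 3 fell (18.7%). The block added Atf4, Trib3, Gpt2, Got1 and Pck2. With upper-quartile scaling the count was 15 risen (13.8% over all genes), without Sesn2 and Pycr1, and 3 fallen (16.7%). That scaling turned the split over all genes from 2184 risen and 1849 fallen to 1750 and 2105. Without Vehicle replicate 2 or TGFB1 replicate 3 only 1 member fell, Slc38a2. Over all genes 1435 and 1369 fell in these settings, beside 1849 in the main fit.

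In 19 of 31 members every TGFB1 library lay above every Vehicle library (26.1% over all tested genes), and in 3 every one lay below (21.8%). The levels moved together with other quantities. The TGFB1 libraries had the lower relative depth given above, and the summed FPKM of 10 smooth muscle and pericyte markers was 2989 to 3354 with TGFB1 and 2004 to 2489 with vehicle. In both groups 7 of the 10 were above 1 FPKM in every library. Kcnj8 was among these 7 only under vehicle, and Cspg4 only under TGFB1. Most of the sum was Actg2, at 1762, 1529 and 1400 FPKM under vehicle and 2413, 2239 and 2128 under TGFB1. The list did not move as one. Mcam and Cspg4 were higher in every TGFB1 library than in any Vehicle library, while Notch3 and Kcnj8 were lower. The sum of 12 leukocyte markers was 476, 43.4 and 705 FPKM under vehicle and 289, 17.4 and 380.4 under TGFB1. The ranges overlap, the sum was lower in the treated library of each of the 3 same-numbered pairs, and replicate 2 was far below the others in both groups. In replicates 1 and 3 most of the sum was Lyz2, at 372 and 547 FPKM under vehicle and 214 and 250 under TGFB1. The single genes did not all follow the sum. Lyz2, Cd68 and Cd14 were lower with TGFB1 in each pair, while Csf1r and Cd52 were higher with TGFB1 in replicates 1 and 3. Pdgfra was at 137, 125 and 165 FPKM under vehicle and 13.8, 19.7 and 12.1 under TGFB1, with no overlap. It was at 48.3, 75.3 and 99.8 in Tgfbr2KO_Vehicle and 67.3, 83.2 and 195 in Tgfbr2KO_TGFB1. The part of depth, of Pdgfra and of these markers in the result was not tested, and in bulk RNA fewer cells of a type and less RNA per cell cannot be told apart.

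**Figure D1:**
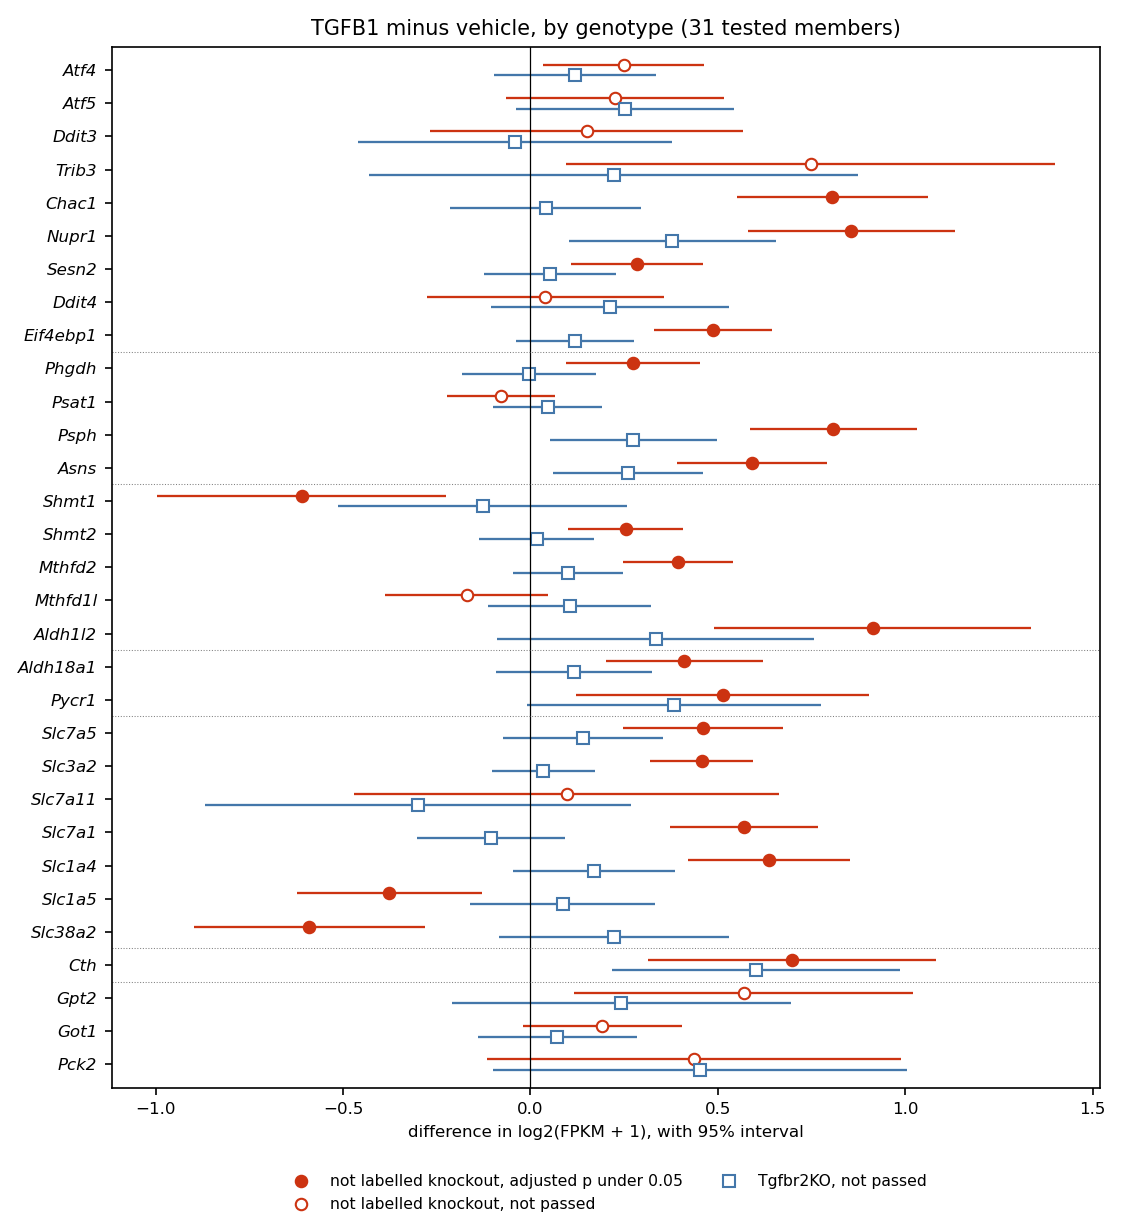
Difference in log2(FPKM + 1) between TGFB1 and vehicle for the 31 tested members, with 95% intervals, in cells without the knockout label (circles) and in Tgfbr2KO cells (squares). Filled symbols passed an adjusted p of 0.05, which 20 circles and 0 squares did.

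Among the transcription factors, Atf4 was at 167, 165 and 194 FPKM under vehicle and at 192, 212 and 219.8 under TGFB1. The groups overlapped in 1 pair of libraries, while every TGFB1 library was above the Vehicle library of its own number. Its log2 change of 0.25 (SE 0.10) had a limma adjusted p of 0.0769, and of 0.00239 with the replicate block. In Tgfbr2KO cells Atf4 was at 141, 144 and 165 FPKM under vehicle and 150.2, 157 and 182 under TGFB1, and these groups overlapped too. There as well, every TGFB1-treated library was above the untreated library of its own number, with a log2 change of 0.12 (SE 0.10). The change in Tgfbr2KO cells minus that in the other cells was -0.13 (limma adjusted p 0.554). A difference between genotypes in the Atf4 response was thus not shown.

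Atf5, a related factor that is also translationally controlled, had the highest mean of the 33 genes. It was at 299.7, 262 and 370.3 FPKM under vehicle and 352, 354 and 373 under TGFB1. Its change of 0.23 in log2 (SE 0.13) did not pass (adjusted p 0.224). Ddit3, which encodes the stress factor CHOP, went from a mean of 58.3 ± 15.6 FPKM to 63.7 ± 9.66 (SD, n = 3) and did not pass either (adjusted p 0.588).

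Trib3, a pseudokinase that acts back on ATF4, was at 18.3, 14.5 and 33.5 FPKM under vehicle and 32.6, 34.0 and 40.6 under TGFB1. The third Vehicle library reached into the TGFB1 range. Its log2 change was 0.75 (SE 0.29, adjusted p 0.0780), and the p was 0.00656 with the block. Ddit4, an inhibitor of mTORC1 signalling, had means of 78.9 ± 8.70 and 81.0 ± 7.79 FPKM and an adjusted p of 0.864.

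Chac1, an enzyme that breaks down glutathione, was at 14.9, 12.5 and 17.9 FPKM under vehicle and 24.2, 28.8 and 27.8 under TGFB1. The groups did not overlap, and the ratio of means was 1.78 (log2 change 0.81, SE 0.12, adjusted p 0.000578). Nupr1, a small stress-induced chromatin protein, stood at 169.5, 127 and 169 FPKM and at 315, 249 and 276. It too rose without overlap, by 1.81-fold (log2 0.86, SE 0.12, adjusted p 0.000643). Both genes carry a match to the composite motif in the sequences above.

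Eif4ebp1 encodes a repressor of cap-dependent translation. It rose from 198, 176 and 199 FPKM to 268, 254 and 280.2 (log2 0.49, SE 0.07, adjusted p 0.000659). Sesn2, a leucine sensor that restrains mTORC1, moved less, from 32.0, 28.5 and 32.7 FPKM to 36, 40.1 and 38.1. Its log2 change of 0.28 (SE 0.08) had an adjusted p of 0.0198, which was 0.0754 without Vehicle replicate 2, 0.0694 without TGFB1 replicate 2 and 0.0564 without TGFB1 replicate 3.

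**Figure D2:**
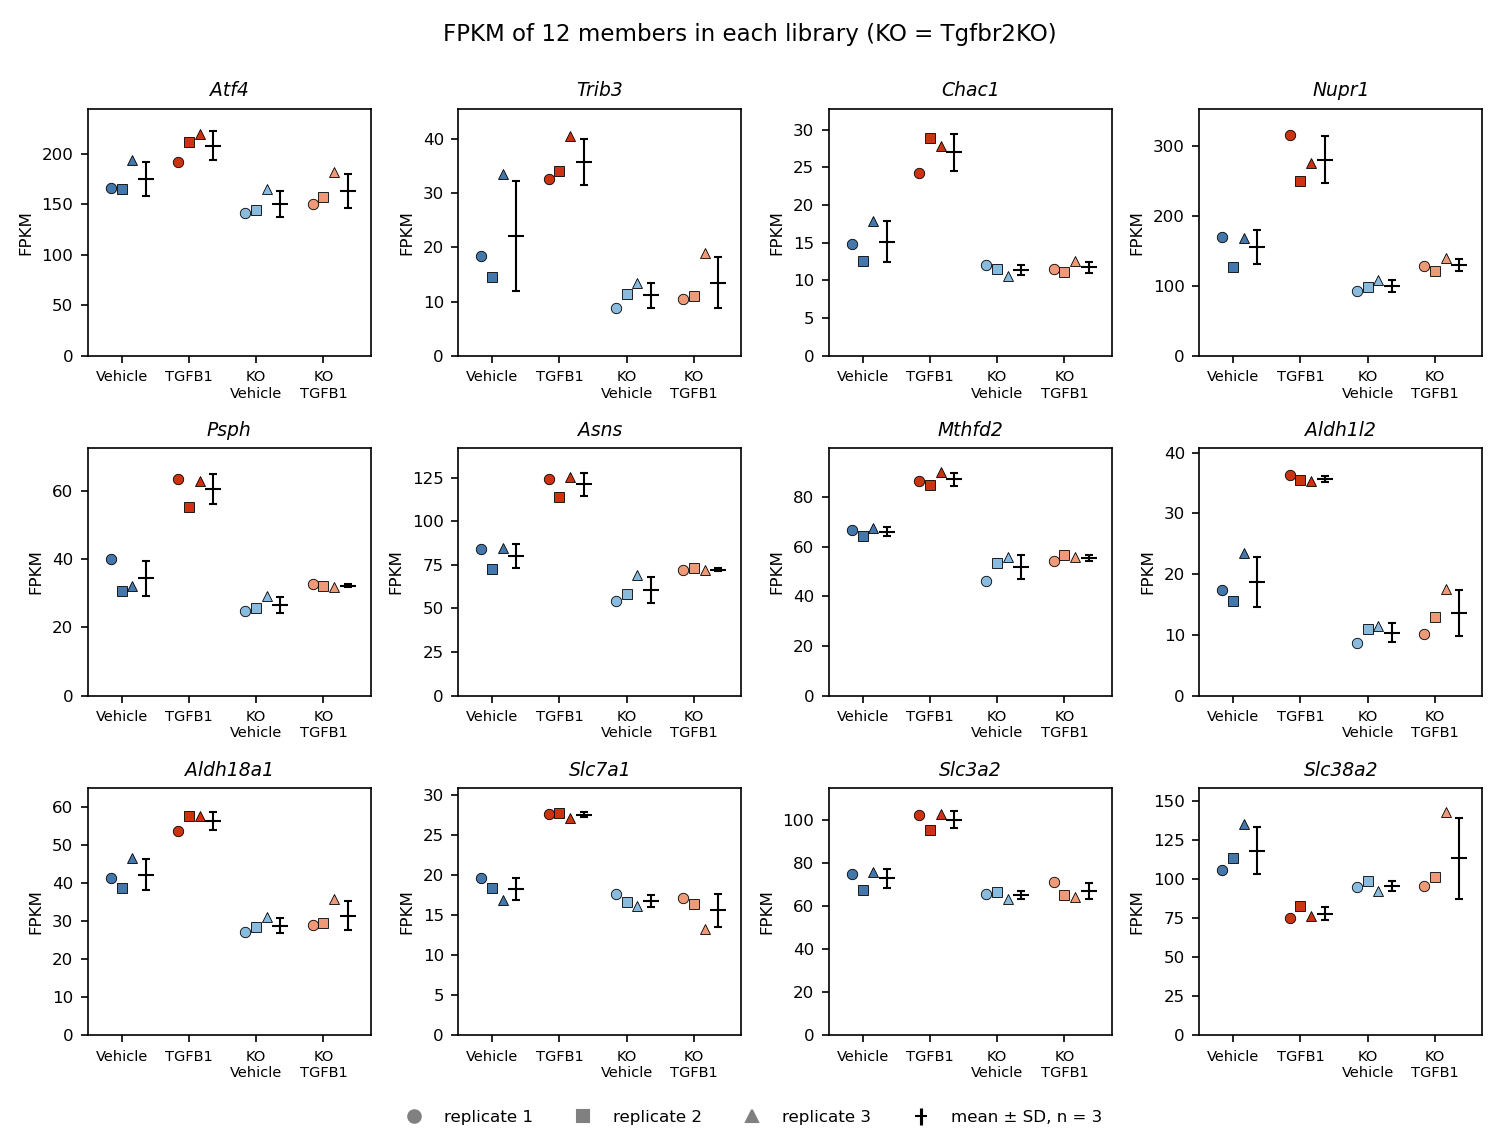
FPKM of 12 members in each library by group, with replicate numbers as symbols and the mean ± SD (n = 3) beside the points. Chac1, Nupr1 and Psph lie higher in every TGFB1 library than in any other library, and Slc38a2 lies lower.

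Serine is made from a glycolytic intermediate by 3 enzymes in turn, encoded by Phgdh, Psat1 and Psph. Phgdh, the entry step, was at 141, 134 and 127 FPKM under vehicle and 162, 157 and 167 under TGFB1. The groups did not overlap, and the log2 change was 0.27 (SE 0.08, adjusted p 0.0265). It did not pass without Vehicle replicate 2 or 3, or without TGFB1 replicate 1 or 3 (adjusted p 0.0628 to 0.0874). Psat1, the middle step, was at 126, 113 and 115 FPKM and at 111, 113 and 109.7. Its log2 change was -0.08 with a 95% interval from -0.22 to 0.07 (adjusted p 0.396).

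Psph, the last step, had the largest rise of the 3. It was at 40.1, 30.7 and 32.2 FPKM under vehicle and 63.5, 55.4 and 62.8 under TGFB1. Every treated library was above every untreated one, and the ratio of means was 1.76 (log2 0.81, SE 0.10, adjusted p 0.000253). Asns, which makes asparagine from aspartate and glutamine, rose from 83.8, 72.3 and 84.4 FPKM to 124, 114 and 125. That is a log2 change of 0.59 (SE 0.09, adjusted p 0.000873).

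Serine is split to glycine and a one-carbon unit by SHMT1 in the cytosol and SHMT2 in mitochondria, and the 2 genes changed in opposite directions. Shmt1, low throughout, had a mean of 3.46 ± 1.12 FPKM under vehicle and 1.86 ± 0.281 under TGFB1. It fell by 0.61 on the log2 scale (SE 0.17, adjusted p 0.0223), without overlap between the groups. Shmt2 was at 76.6, 81.0 and 73.2 FPKM and at 83.7, 96.3 and 96.3. Its groups also stayed apart, with a rise of 0.25 (SE 0.07, adjusted p 0.0181). Both calls were lost when single libraries were left out: Shmt1 without replicate 1 or 2 of Vehicle or replicate 2 or 3 of TGFB1 (0.0630 to 0.0778), and Shmt2 without Vehicle replicate 3 or TGFB1 replicate 2 or 3 (0.0608 to 0.0715). Shmt1 also missed the threshold when only the 2 groups compared were fitted (0.0627).

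Mthfd2, the mitochondrial dehydrogenase and cyclohydrolase of the folate pathway, went from 66.6, 64.2 and 67.7 FPKM to 86.7, 84.9 and 90.1. Its libraries were tightly grouped, and the log2 change was 0.39 (SE 0.07, adjusted p 0.00144). Aldh1l2, which oxidizes mitochondrial 10-formyl-tetrahydrofolate, had the largest rise of all members. It stood at 17.3, 15.5 and 23.4 FPKM under vehicle and at 36.3, 35.4 and 35.3 under TGFB1, a ratio of means of 1.90 (log2 0.91, SE 0.19, adjusted p 0.00492). Mthfd1l, a mitochondrial formate-releasing enzyme, had means of 22.3 ± 0.423 and 19.8 ± 2.73 FPKM and an adjusted p of 0.219.

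Proline is made from glutamate by the synthase encoded by Aldh18a1 and by PYCR reductases, and is broken down by PRODH. Aldh18a1 was at 41.3, 38.8 and 46.7 FPKM under vehicle and 53.7, 57.6 and 57.8 under TGFB1. The lowest treated library was above the highest untreated one, and the log2 change was 0.41 (SE 0.09, adjusted p 0.00793). Pycr1 was at 9.61, 7.79 and 12.6 FPKM and at 14.7, 13.3 and 15.3. Its rise of 0.51 (SE 0.18, adjusted p 0.0484) passed in 5 of 19 alternative settings, and leaving out single libraries gave up to 0.166 (without Vehicle replicate 2). With the replicate block the p was 0.00117. Prodh did not pass the filter on low values. Its mean was 0.904 ± 0.0673 FPKM under vehicle and 0.334 ± 0.0553 under TGFB1, and 0.762 ± 0.152 and 0.516 ± 0.0812 in the Tgfbr2KO groups (SD, n = 3 each). In the fit with no filter it fell by 0.51 with TGFB1 (SE 0.07, adjusted p 0.000990 over 20501 genes), and its interaction of 0.30 did not pass (adjusted p 0.0997).

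Slc7a5 and Slc3a2 encode the light and heavy chains of the LAT1 exchanger for large neutral amino acids. Slc7a5 was at 60.5, 53.4 and 65.0 FPKM under vehicle and 79.8, 83.7 and 83.0 under TGFB1 (log2 change 0.46, SE 0.10, adjusted p 0.00496). Slc3a2 was at 74.8, 67.5 and 76.0 and at 102, 95.4 and 102 (log2 0.46, SE 0.06, adjusted p 0.000417). Both chains rose by 1.38-fold in means, with no overlap. Slc7a11, the cystine light chain that also pairs with SLC3A2, was low at 1.82 ± 0.25 and 2.02 ± 0.262 FPKM and did not pass (adjusted p 0.809).

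Slc7a1 carries arginine, lysine and ornithine into cells. It was at 19.5, 18.3 and 16.8 FPKM under vehicle and at 27.6, 27.7 and 27.1 under TGFB1, a rise of 0.57 (SE 0.09, adjusted p 0.000989). Slc1a4 exchanges alanine, serine and cysteine. It went from 15.4, 13.7 and 17.5 FPKM to 24.2, 24.3 and 25.3 (log2 0.64, SE 0.10, adjusted p 0.000878). In both genes the treated libraries lay close together and above all Vehicle libraries.

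The 2 transporters that fell carry glutamine and other small neutral amino acids. Slc38a2, the sodium-coupled SNAT2, was at 106, 114 and 135 FPKM under vehicle and 75.1, 82.6 and 76.1 under TGFB1. All treated libraries were below all untreated ones, and the gene fell by 0.59 on the log2 scale (SE 0.14, adjusted p 0.00896), or 1.52-fold in means. Slc1a5, the exchanger ASCT2, was at 10.4, 10.6 and 11.9 and at 8.07, 8.51 and 8.08 FPKM. It fell by 0.38 (SE 0.11, adjusted p 0.0260), a call lost without Vehicle replicate 2 or 3 or TGFB1 replicate 1 or 3 (adjusted p 0.0513 to 0.0845).

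Cth, which releases cysteine from cystathionine, was at 13.3, 9.07 and 13.6 FPKM under vehicle and 19.5, 18 and 21.9 under TGFB1. It rose by 0.70 (SE 0.17, adjusted p 0.0117). Cbs, the step before it, did not pass the filter. Its means were 0.356 ± 0.161 FPKM with vehicle, 0.141 ± 0.0256 with TGFB1, 0.362 ± 0.109 in knockout cells given vehicle and 0.483 ± 0.240 in knockout cells given TGFB1 (SD, n = 3 each). With no filter its change with TGFB1 was -0.24 (SE 0.12, adjusted p 0.204).

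The 3 transamination and phosphoenolpyruvate genes did not pass without the block. Gpt2, the mitochondrial alanine transaminase, had means of 7.23 ± 1.94 and 11.0 ± 0.917 FPKM (adjusted p 0.0563, or 0.00655 with the block). Got1, the cytosolic aspartate transaminase, had 30.8 ± 1.55 and 35.3 ± 2.01 (0.158, or 0.0380 with the block). In these 2 genes the groups did not overlap. Pck2, the mitochondrial phosphoenolpyruvate carboxykinase, had 38.8 ± 9.48 and 52.0 ± 5.44 (0.216, or 0.0358 with the block).

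Genes that rose were found with and without a match to TGATGNAA. Of the 9 tested members with a match 5 rose, of the 17 tested members with a window but no match 8 rose, and of the 5 without a window 4 rose. Over all tested genes 17.3% rose. Asns, Chac1, Nupr1, Pycr1 and Slc1a4 are the 5 with a match that rose, while Got1, Pck2, Slc7a11 and Trib3 did not pass. With the replicate block Got1, Pck2 and Trib3 passed as well. The counts were then 8 of 9 with a match, 10 of 17 without one and 4 of 5 without a window, beside 22.7% over all tested genes. The difference between the shares with and without a match was not tested. The share risen among all genes with a match was not computed, so these counts do not tell what the motif adds.

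**Figure D3:**
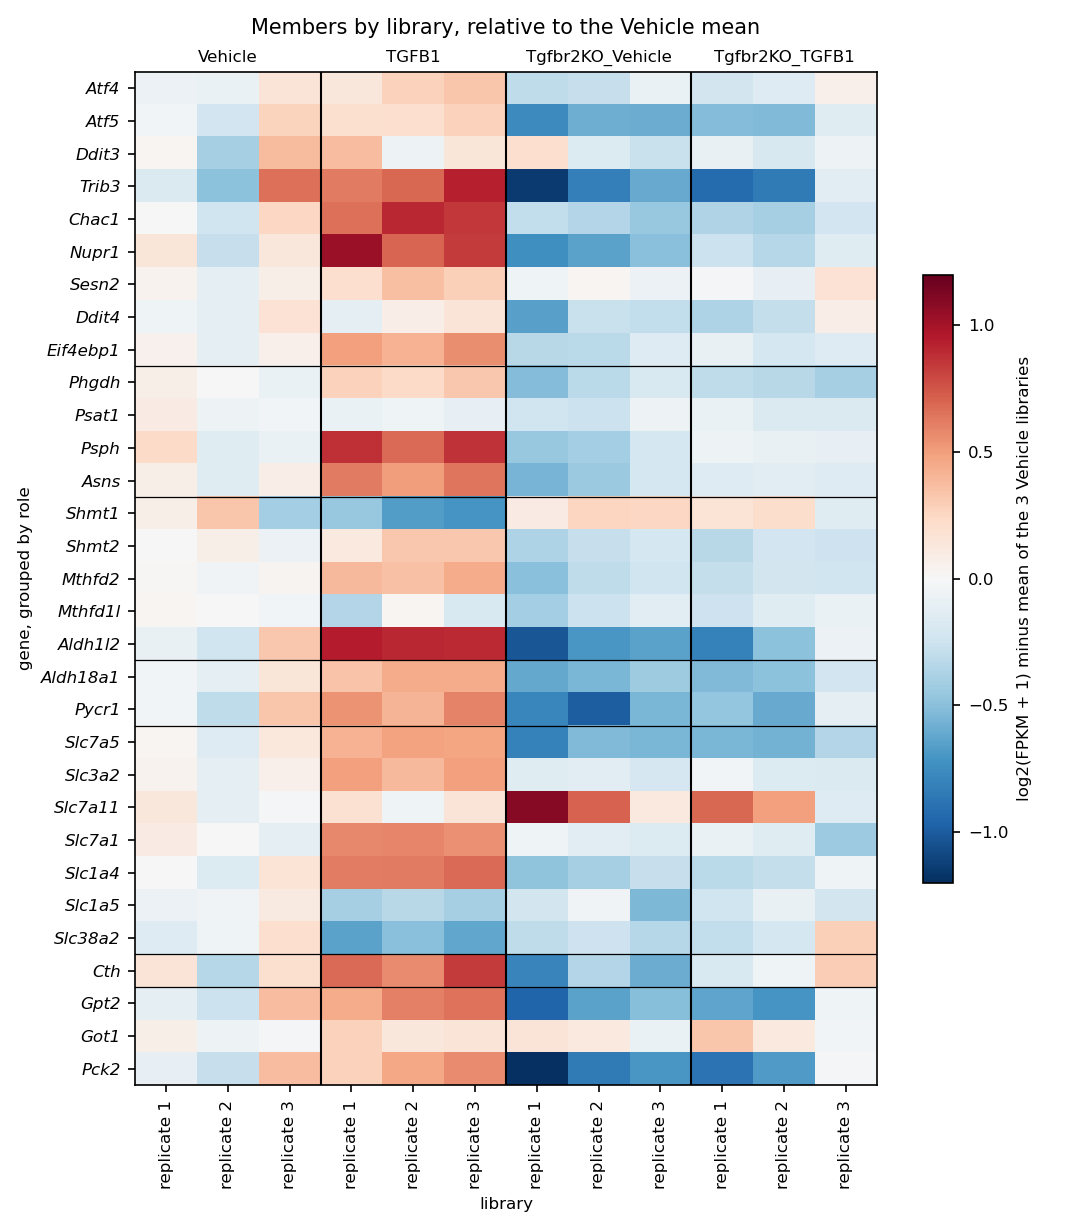
Level of each tested member in each library, as log2(FPKM + 1) minus the mean of the 3 Vehicle libraries, with genes grouped by role. The TGFB1 columns are mostly above the Vehicle mean and the Tgfbr2KO columns mostly below it. Differences run from -1.38 to 1.1.

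In Tgfbr2KO cells no member passed the test for TGFB1. The limma count was 0 of 31 in both directions, as it was over all tested genes (0% risen and 0% fallen), and it was also 0 of 31 with the replicate block. Member adjusted p-values ran from 0.738 to 0.989, and the smallest was 0.247 with the block. At an unadjusted p under 0.05 there were 4 of 31 members (12.9%), Nupr1, Psph, Asns and Cth, beside 5.92% of all tested genes. The median member difference was 0.12 in log2 beside 0.00 over all tested genes, and 26 of 31 members lay above 0, beside 50%.

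A missed threshold does not show that the knockout cells did not respond. Nupr1 was at 92.1, 98.1 and 109 FPKM under vehicle and 129, 121.2 and 139 under TGFB1 in Tgfbr2KO cells, without overlap. Its log2 difference was 0.38, with a 95% interval from 0.10 to 0.66. Cth was at 6.37, 9.00 and 7.48 FPKM and at 10.3, 11.4 and 14.7, again without overlap, a difference of 0.60 (0.22 to 0.99) beside 0.70 in cells without the knockout label. Chac1, at 12.0, 11.5 and 10.6 and at 11.5, 11.1 and 12.6 FPKM, differed by 0.04 (-0.21 to 0.30). Slc3a2, at 65.5, 66.5 and 63.2 and at 71.0, 64.9 and 64.3 FPKM, differed by 0.03 (-0.10 to 0.17).

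The interaction, which is the TGFB1 difference in Tgfbr2KO cells minus that in the other cells, tests whether the 2 responses differ. It was negative and past the threshold in 6 of 31 members (19.4%, beside 9.26% of all tested genes) and positive in 1 (3.23%, beside 8.38%). The 6 were Slc7a1 at -0.68 (SE 0.13, adjusted p 0.00558), Slc3a2 at -0.42 (SE 0.09, 0.00895), Chac1 at -0.76 (SE 0.16, 0.0103), Psph at -0.53 (SE 0.14, 0.0280), Eif4ebp1 at -0.37 (SE 0.10, 0.0311) and Slc1a4 at -0.47 (SE 0.14, 0.0411). The positive one was Slc38a2 at 0.81 (SE 0.20, 0.0183). Each was a member whose change with TGFB1 alone had passed, and the difference in Tgfbr2KO cells was nearer 0 or of the other sign.

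Of these 7 genes, all but Psph had levels that overlapped between the 2 Tgfbr2KO groups. Slc7a1 was at 17.5, 16.6 and 16.1 FPKM for Tgfbr2KO_Vehicle and 17.1, 16.3 and 13.2 in Tgfbr2KO_TGFB1. Psph was at 24.7, 25.5 and 29.3 and at 32.6, 32.1 and 31.8, with every TGFB1-treated library above every untreated one. Eif4ebp1 was at 151, 152 and 172 and at 179, 165 and 171. These 3 genes stayed below every library of the TGFB1 group.

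Slc1a4 was at 10.8, 11.5 and 12.5 FPKM for Tgfbr2KO_Vehicle and 12.2, 12.5 and 14.9 in Tgfbr2KO_TGFB1. Slc38a2 was at 94.8, 99.1 and 92.6 and at 95.7, 101 and 143, where the third library was far above the other two. In both genes the ranges of the 2 groups overlapped.

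Chac1, Slc3a2, Slc7a1 and Slc38a2 had an interaction past the threshold under every alternative tried, while Psph, Eif4ebp1 and Slc1a4 did not. With the replicate block 10 members were negative (32.3%, beside 15.4% of all tested genes), with Nupr1, Shmt2, Mthfd2 and Aldh18a1 added, and 2 positive (6.45%, beside 13.6%), with Slc1a5 added. The count of negative members fell from 6 to 3 without Vehicle replicate 2, TGFB1 replicate 1, TGFB1 replicate 3, Tgfbr2KO_Vehicle replicate 3 or Tgfbr2KO_TGFB1 replicate 2. The number negative over all genes fell as well, from 1171 to 941, 730, 821, 1042 and 933 in that order. The count of positive members was 2 without Vehicle replicate 3 or Tgfbr2KO_Vehicle replicate 2, where 875 and 772 of all genes were positive, beside 1059 in the main fit. For the genes that rose with TGFB1 but have no interaction past the threshold, a difference between genotypes was not shown. Cth is the clearest of these, with an interaction of -0.10 (95% interval -0.64 to 0.45).

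Without TGFB1, the knockout libraries lay lower in most members. In Tgfbr2KO_Vehicle minus Vehicle, 5 of 31 members were lower past the threshold (16.1%, beside 0.72% of all tested genes) and 0 were higher (beside 0.522%). At an unadjusted p under 0.05, 24 members were lower (77.4%, beside 11.6% of all tested genes) and 1 was higher, Slc7a11 (3.23%, beside 10.3%). The median member difference was -0.35 in log2, beside 0.00 over all tested genes, and 28 of 31 members lay below 0, beside 50.5%. In 22 of 31 members every Tgfbr2KO_Vehicle library was below every Vehicle library (71.0%, beside 15.6%). This comparison shares the Vehicle libraries with the TGFB1 comparison, so a low or high Vehicle value enters both.

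Slc7a5 had the smallest p of the 5. It was at 33.5, 40.9 and 40.3 FPKM in Tgfbr2KO_Vehicle, all below the Vehicle range of 53.4 to 65.0, and lower by 1.56-fold in means (log2 -0.63, SE 0.10, adjusted p 0.0271). Aldh18a1 was at 27.1, 28.4 and 31, below the Vehicle range of 38.8 to 46.7 (log2 -0.53, SE 0.09, adjusted p 0.0361). Mthfd2 was at 46.4, 53.5 and 55.7, below 64.2 to 67.7 (log2 -0.35, SE 0.07, adjusted p 0.0405).

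Nupr1, given above for Tgfbr2KO_Vehicle, was below its Vehicle range of 127 to 169.5 FPKM (log2 -0.62, SE 0.12, adjusted p 0.0470). Atf5 was at 181, 205 and 203 FPKM, below 262 to 370.3 (log2 -0.65, SE 0.13, adjusted p 0.0480). With TGFB1 the Tgfbr2KO cells had Atf5 at 214, 213 and 278 FPKM.

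Larger differences than these did not pass where the standard error, which takes in the spread of all 4 groups, was larger. Pck2 was at 14.0, 20.7 and 23 FPKM for Tgfbr2KO_Vehicle and 35.6, 31.4 and 49.5 in Vehicle (log2 -0.98, SE 0.25, adjusted p 0.0819). Trib3 was at 8.84, 11.3 and 13.4, below the Vehicle libraries (log2 -0.86, SE 0.29, adjusted p 0.145). Aldh1l2 was at 8.58, 11.0 and 11.5 (log2 -0.79, SE 0.19, adjusted p 0.0712).

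Slc7a11 was the member with the largest difference above 0. It was at 5.02, 3.60 and 2.05 FPKM for Tgfbr2KO_Vehicle and 2.09, 1.60 and 1.78 in Vehicle. The first Tgfbr2KO_Vehicle library, which also had the most Krt8, was the highest, and the groups overlapped (log2 0.64, SE 0.26, adjusted p 0.187). Shmt1 and Got1 were the other two members above 0, and neither passed (adjusted p 0.510 and 0.707).

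These 5 calls were near the threshold and no one of them held in every alternative. The count was 0 without Vehicle replicate 1 or 3, TGFB1 replicate 1 or any 1 of the Tgfbr2KO_Vehicle libraries. It was 1 without TGFB1 replicate 2 or 3 or Tgfbr2KO_TGFB1 replicate 2, 2 without Tgfbr2KO_TGFB1 replicate 1, and 13 without Tgfbr2KO_TGFB1 replicate 3. Over all tested genes the number lower in Tgfbr2KO_Vehicle was 91, and in those same settings it moved as well. It was 0 to 17 in the settings with 0 members, 24 to 36 in those with 1, 67 without Tgfbr2KO_TGFB1 replicate 1 and 426 without Tgfbr2KO_TGFB1 replicate 3. The member count was also 0 when only the 2 groups were fitted, where 0 of all genes passed. It was 1 with no filter, 2 without the variance trend and 3 with upper-quartile scaling, beside 45, 46 and 75 of all genes. With the replicate block, whose limits are given in the closing section, 19 members were lower (61.3%, beside 8% of all tested genes). Summed FPKM of 12 fibroblast markers was 3325 to 4681 in Tgfbr2KO_Vehicle and 5998 to 10550.1 in Vehicle. The list did not move as one. Col1a1, Col1a2 and Col3a1 were lower in every Tgfbr2KO_Vehicle library than in any Vehicle library. Pdpn was higher, at 221 to 304 beside 126 to 167 FPKM, and Vim and Thy1 overlapped. For 12 leukocyte markers the sum was 339 to 509.7 and 43.4 to 705, ranges that overlap. In that list the myeloid gene S100a8 was at 39.5 to 219 and 0.727 to 11.2 FPKM, while Csf1r, Lyz2 and Adgre1 overlapped. The part of these cell markers in the lower levels was not tested.

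**Figure D4:**
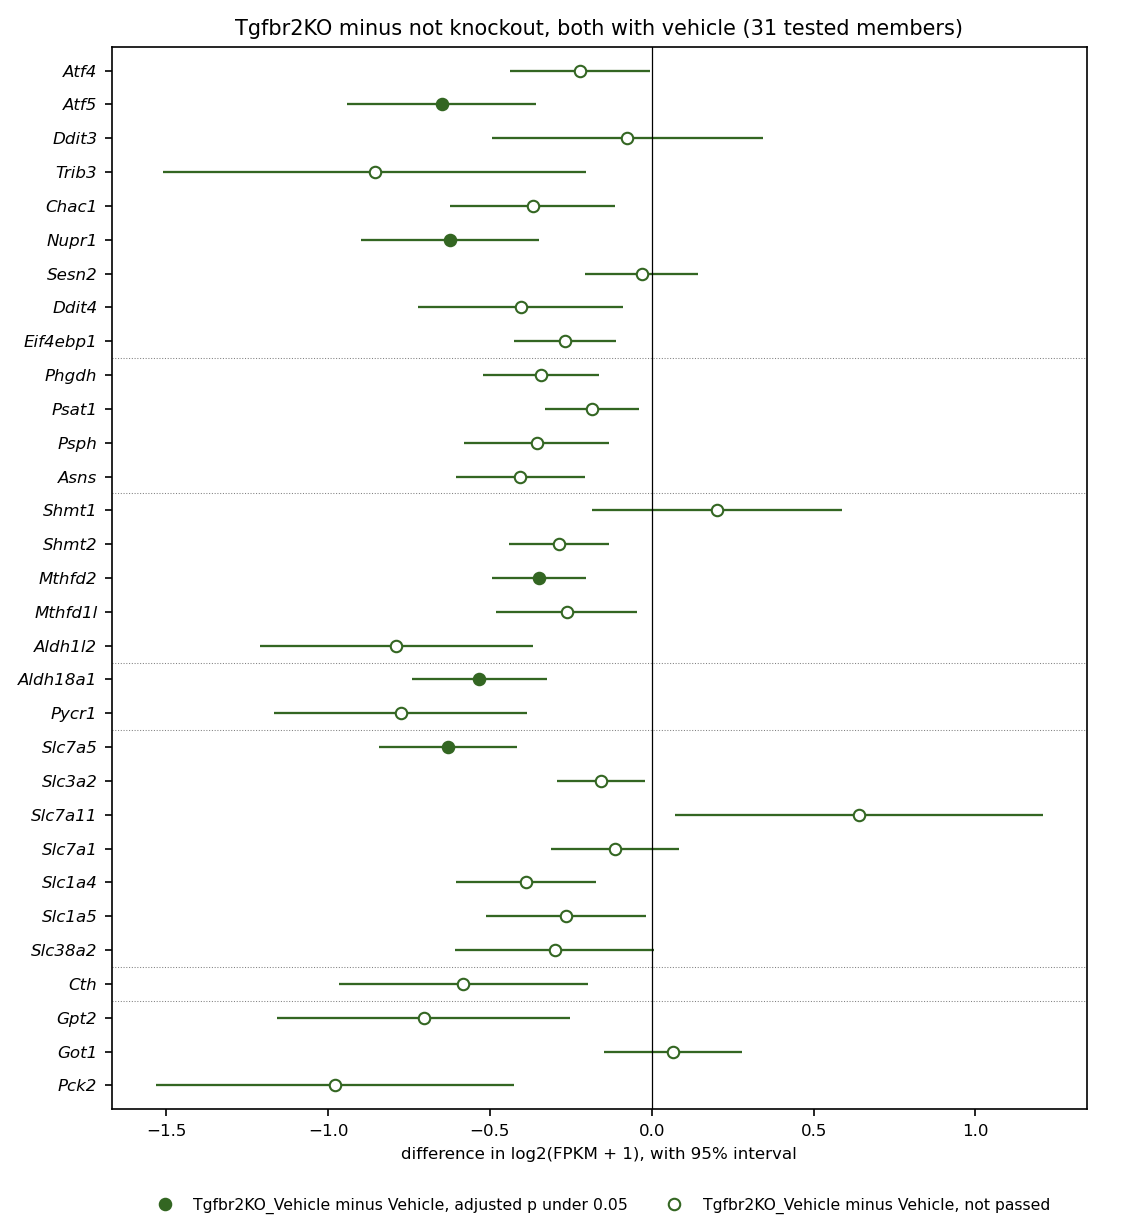
Difference in log2(FPKM + 1) between Tgfbr2KO_Vehicle and Vehicle for the 31 tested members, with 95% intervals. Filled circles are the 5 members past an adjusted p of 0.05, and 28 of 31 circles lie below 0.

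Averaged over the 31 tested members, log2(FPKM + 1) in single TGFB1 libraries was 0.31 to 0.37 above the Vehicle mean. It was 0.43, 0.33 and 0.31 below that mean in Tgfbr2KO_Vehicle, and 0.26, 0.26 and 0.11 below it in Tgfbr2KO_TGFB1. The third replicate was the highest of its group in 21, 15, 17 and 18 of the 31 members for Vehicle, TGFB1, Tgfbr2KO_Vehicle and Tgfbr2KO_TGFB1. The same share over all tested genes was not computed, so these counts cannot be called particular to the members. Members are not replicates of a condition, and these averages carry no test.

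Other genes of the same pathways were read from lists, with the same background over all genes. The route into ATF4 runs through eIF2 alpha kinases and the phosphatase that reverses them. Of 10 tested genes of this kind 3 rose with TGFB1 (30%) and 0 fell, beside 17.3% and 14.6% over all tested genes. Ppp1r15a, the stress-induced phosphatase subunit that ends the response, went from 29.1 ± 1.03 to 46.4 ± 1.38 FPKM (SD, n = 3; log2 0.66, adjusted p 0.000701). Eif2ak3, the endoplasmic reticulum kinase PERK, went from 5.63 ± 0.181 to 8.47 ± 0.420 (log2 0.51, adjusted p 0.000610), and Ppp1r15b, the constitutive phosphatase subunit, from 22.7 ± 0.544 to 26.7 ± 2.39 (log2 0.22, adjusted p 0.0204). The interaction was negative and past the threshold for Ppp1r15a at -0.48 (adjusted p 0.0365) and Eif2ak3 at -0.48 (adjusted p 0.0116).

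Charging of tRNA was the list, of the 8 read, with the highest share of risen genes. Of 20 cytosolic aminoacyl-tRNA synthetases 12 rose (60%) and 0 fell with TGFB1, beside 17.3% and 14.6% over all tested genes. The interaction past the threshold was negative in 9 (45%, beside 9.26%) and positive in 0 (beside 8.38%). Between genotypes with vehicle 0 differed, where only 0.72% of all tested genes were lower and 0.522% higher. Tars, for threonine, went from 69.5 ± 5.96 to 115.6 ± 2.90 FPKM (log2 0.73, adjusted p 3.25e-05), Gars, for glycine, from 116 ± 5.25 to 188 ± 4.60 (log2 0.68, adjusted p 0.000143), and Nars, for asparagine, from 167 ± 9.77 to 268 ± 10.1 (log2 0.68, adjusted p 0.000335). In Tgfbr2KO cells the same genes differed by 0.09, -0.01 and 0.01 between the treatments. The median log2 change of the list with TGFB1 was 0.33.

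Factors and secreted proteins linked to ATF4 went both ways. Of 17 tested, 7 rose (41.2%) and 6 fell (35.3%) with TGFB1, beside 17.3% and 14.6% over all tested genes. Fgf21, a stress hormone, was at 0.0610 ± 0.0599 FPKM under vehicle and 6.42 ± 2.02 under TGFB1 (log2(FPKM + 1) change 2.77, adjusted p 1.00e-05), and its interaction was -2.69 (adjusted p 0.000262). Gadd45a, a growth arrest gene, went from 33.4 ± 9.01 to 84.6 ± 6.32, and Vegfa, the vascular growth factor, from 120.9 ± 21.4 to 247 ± 6.89 (log2 1.34 and 1.04, adjusted p 0.000267 and 0.000171). Cebpd, a C/EBP factor, fell from 116 ± 2.07 to 24.96 ± 6.80 (log2 -2.21, adjusted p 4.40e-05). Stc2, a secreted glycoprotein, fell from 6.40 ± 1.5 to 1.44 ± 0.199 and Gdf15, a stress cytokine, from 47.1 ± 16.7 to 23.8 ± 6.46 (log2 -1.59 and -0.92, adjusted p 0.0155 and 0.0401).

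Of 18 other folate, one-carbon and glycine genes 3 rose and 3 fell, 16.7% each way, which is near the 17.3% and 14.6% over all tested genes. With the replicate block 4 rose and 5 fell, beside 22.7% and 18.7% over all tested genes. Slc25a32, the mitochondrial folate carrier, and Fpgs, which adds glutamates to folate, rose by 0.26 and 0.22 in log2 (adjusted p 0.0397 and 0.0426). Aldh1l1, the cytosolic counterpart of Aldh1l2, fell from 2.21 ± 0.778 to 0.931 ± 0.349 FPKM (log2 -0.72, adjusted p 0.0333). Tyms, thymidylate synthase, fell by 0.55 on the log2 scale (adjusted p 0.0101).

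Of 17 other proline, glutamate and arginine genes 3 rose (17.6%) and 2 fell (11.8%), also near the shares over all tested genes. Ass1, which joins citrulline and aspartate on the way to arginine, P4ha2, a collagen prolyl hydroxylase subunit, and Pepd, which frees proline from dipeptides, rose by 0.79, 0.54 and 0.31 in log2 (adjusted p 0.0267, 0.0483 and 0.00207). Glul, glutamine synthetase, fell by 0.45, and Aldh4a1, the second step of proline breakdown, fell by 0.41 on the log2 scale (adjusted p 0.00142 and 0.000395). The interaction of Aldh4a1 was 0.48 (adjusted p 0.00278).

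Of 15 other amino acid transporters 5 rose (33.3%) and 3 fell (20%), beside 17.3% and 14.6% over all tested genes. Slc7a3, a cationic amino acid carrier, went from 2.16 ± 0.639 to 6.54 ± 0.561 FPKM (log2 1.27, adjusted p 0.000197). Slc7a7, a light chain for cationic and neutral exchange, and Slc38a10 rose by 0.94 and 0.49 (adjusted p 0.0124 and 0.000126). Slc7a2, another cationic carrier, and the neutral carriers Slc43a2 and Slc43a1 fell by 1.00, 0.68 and 0.52 on the log2 scale (adjusted p 0.0162, 0.0417 and 0.0191). The carriers for arginine and lysine thus moved in both directions, with Slc7a1 and Slc7a3 risen and Slc7a2 fallen. In Tgfbr2KO cells 0 genes of these lists passed for TGFB1, as over all tested genes.

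**Figure D5:**
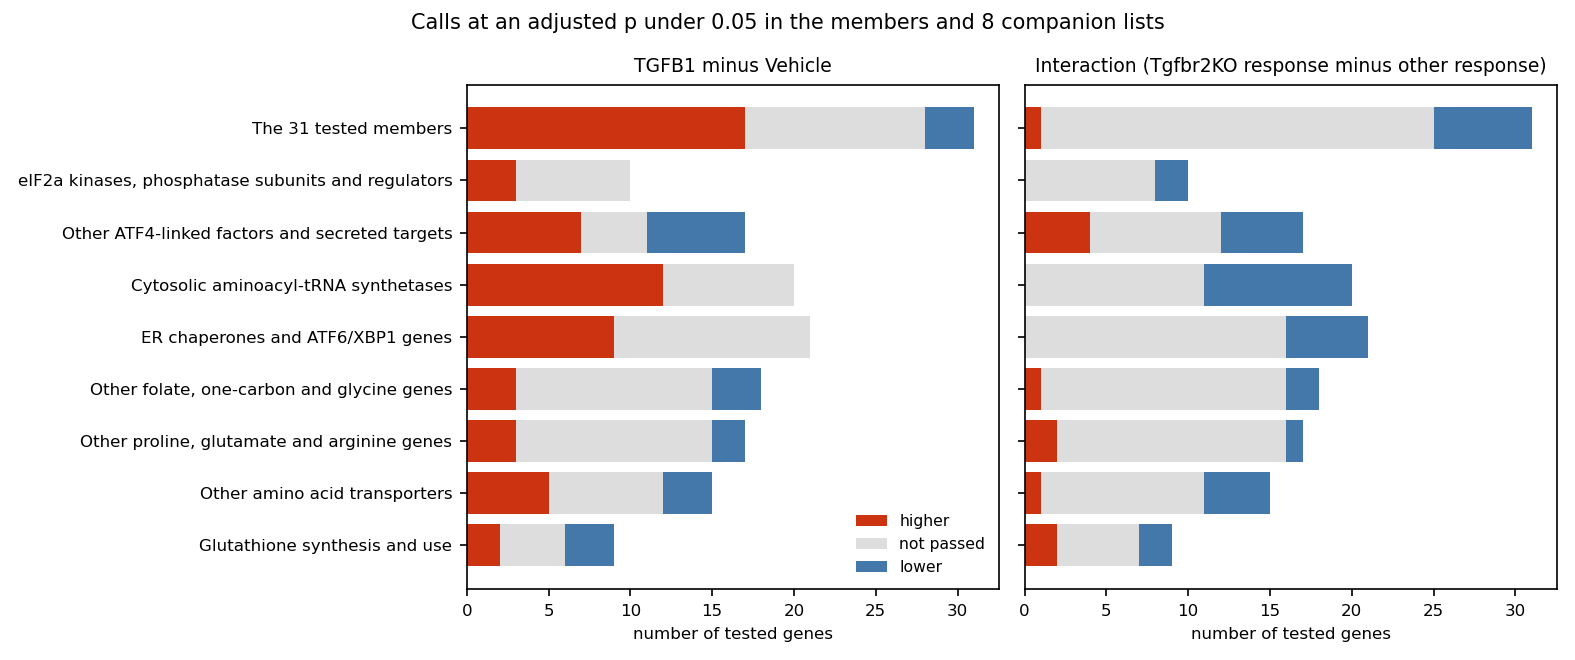
Number of tested genes that were higher, lower or not past an adjusted p of 0.05 in the 31 members and in 8 further lists, for TGFB1 minus Vehicle and for the interaction. The bars show 17 higher and 3 lower members, and 12 higher and 0 lower tRNA synthetases, with TGFB1.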

How the data were processed

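The authors deposited 1 table of FPKM per gene symbol for 12 libraries, made from polyadenylated RNA per the labels' protocols. Per the submitters' processing notes, kallisto 0.46.1, DESeq2 1.40.1 and the build mm9 were used, and how FPKM values were made from them is not given in the sources used here. Absolute depth is not known. Relative depth was read from nonzero genes below 0.5 FPKM in 2 libraries, as the most frequent ratio of their values.

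The log2(FPKM + 1) of each value was used, which makes changes of low genes look smaller, and folds are ratios of mean FPKM. A gene entered the limma 3.58.1 fit (R 4.3.3) if 3 or more libraries reached 1 FPKM. The fit took in 12 libraries, left 8 residual degrees of freedom and used a variance trend and empirical Bayes. P-values were adjusted by Benjamini and Hochberg over the 12641 tested genes with a threshold of 0.05. The median standard error over genes was 0.11. The fit was tested on simulated data. Promoter windows were searched in Python 3.11.15, and figures were drawn with matplotlib 3.10.9.

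The members and lists were chosen with earlier results of these data known. Per-library values are given for members that passed a test at a mean of at least 5 FPKM and for Atf4, and for some that did not pass, chosen after their values were seen. Of each further list up to 3 risen and 3 fallen genes are named, and some are not reported here.

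The labels number the libraries 1 to 3 in each group, and the descriptions carry 31, 121 and 123. Over genes, libraries with the same number deviated together: the correlation of their deviations was 0.391, 0.445 and 0.408 for Vehicle with TGFB1, and 0.588, 0.227 and 0.529 for the Tgfbr2KO groups. For the TGFB1 and interaction comparisons the block is given beside a result where it changed a call or moved a count by over 1.5 times. For the genotype comparison it is given only as counts. The alternatives were the block, a pseudocount of 0.1, no filter, upper-quartile scaling, fitting only the 2 groups compared, no variance trend and leaving out each library. A block within each genotype was added after seeing the data.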

Additional observations from a re-analysis of the deposited data

Results flagged for a closer look

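In 7 members the response to TGFB1 differed between Tgfbr2KO cells and the others by the test of that difference (limma interaction on log2(FPKM + 1), n = 3 libraries in each of 4 groups). It was -0.76 for Chac1, -0.37 for Eif4ebp1, -0.53 for Psph, -0.42 for Slc3a2, -0.68 for Slc7a1, -0.47 for Slc1a4 and 0.81 for Slc38a2. The calls for Chac1, Slc3a2, Slc7a1 and Slc38a2 held under every alternative, while those for Eif4ebp1, Psph and Slc1a4 were lost when single libraries were left out.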

How the results depend on the processing

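For TGFB1 minus Vehicle, 14 of 20 member calls held under every alternative, for the interaction 4 of 7 and for the genotype comparison 0 of 5. No call changed direction. Over single members and settings, 482 kept their side of the threshold and 119 lost it. Leaving out 1 library gave 13 to 20 risen and 1 to 3 fallen members with TGFB1, 3 to 8 negative and 1 to 2 positive interactions, and 0 to 13 lower members in the genotype comparison. Over all genes it gave 1582 to 2500 risen, 1325 to 2071 fallen, 730 to 1310 negative, 700 to 1144 positive and 0 to 426 lower. With the replicate block there were 10 negative and 2 positive interactions, and with the block within each genotype 12 and 2. Over all tested genes the block gave 1942 and 1716, and the block within each genotype 1825 and 1733. Between Vehicle and Tgfbr2KO_Vehicle the deviations of same-numbered libraries correlated at 0.336, -0.0867 and 0.412. Over all tested genes, replicates 1 and 3 thus deviated together across genotypes and replicate 2 did not, so a block by number is uncertain there. Ahcy, of the folate list, followed the number in all 4 groups. In replicates 1, 2 and 3 it was at 52.1, 26.1 and 0.791 FPKM in Vehicle and 43.3, 22.1 and 0.609 in TGFB1. It was at 47.6, 21.1 and 0.710 in Tgfbr2KO_Vehicle and 47.8, 21.6 and 0.467 in Tgfbr2KO_TGFB1. What the number stands for is not in the labels. The replicate block gave 19 lower and 0 higher members, beside 8% and 7.01% of all tested genes. With the block within each genotype 19 were lower and 1 higher, beside 919 and 789 of all 12641 genes. The lower count was 1 with no filter, 3 with upper-quartile scaling, 0 with only the 2 groups compared and 2 without the variance trend. The cause of these shifts was not tested. With no filter 4 members fell with TGFB1, Prodh added. Fitting only the 2 groups was not run for the interaction. In the Tgfbr2KO response 0 members passed under every alternative. Depth is known only relative to the first Vehicle library, which limits what can be said of the genes below 1 FPKM, Prodh and Cbs.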

Other observations

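The unfolded protein response of the endoplasmic reticulum, which refolds or removes misfolded proteins, neighbours the ATF4 route. With TGFB1, of 21 tested chaperones and ATF6 or XBP1 pathway genes 9 rose (42.9%) and 0 fell, beside 17.3% and 14.6% over all tested genes. The interaction was negative and past the threshold in 5 (23.8%, beside 9.26% of all tested genes). In Tgfbr2KO cells 0 passed for TGFB1, as over all tested genes. With the replicate block 15 rose and 14 had a negative interaction, beside 22.7% and 15.4% of all tested genes. Atf6, a membrane-bound stress sensor, went from 8.02 ± 0.634 to 14.8 ± 1.07 FPKM (SD, n = 3; log2 0.81, limma adjusted p 0.000369), with an interaction of -0.89 (adjusted p 0.00371). Ern1, the sensor kinase IRE1, and Edem1, of protein disposal, rose by 0.51 and 0.42 in log2 (adjusted p 0.0349 and 0.000684).

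Glutathione genes went both ways, with 2 of 9 tested risen (22.2%) and 3 fallen (33.3%), beside 17.3% and 14.6% over all tested genes. Ggct and Gss, glutathione synthetase, rose by 0.71 and 0.63 in log2 (adjusted p 0.0224 and 0.00335). Gclm, the modifier subunit of the first step of synthesis, fell from 32.8 ± 6.35 to 19.0 ± 2.21 FPKM (log2 -0.74, adjusted p 0.0160), and Ggt7 and Oplah fell by 0.67 and 0.50 on the log2 scale (adjusted p 0.000600 and 0.00882).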
